A study of Rattus norvegicus with 10 samples.

Results

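The zinc finger gene families are those listed genes whose symbol starts with Zfp, Znf, Zbtb, Zscan, Zkscan, Zfhx, Zeb, Zmym, Zc3h or Zhx. The deposited table held 64 of them among 3334 genes. By prefix they were 46 Zfp, 6 Zbtb, 4 Zkscan, 3 Zc3h, 2 Zfhx, 1 Zhx, 1 Zmym and 1 Znf genes, and no Zscan or Zeb gene was listed. The samples were lens capsules, the membrane around the lens, with the lens epithelial cells that stay attached. For each sample both capsules of a single rat (Sprague-Dawley, male, 6 weeks old) had been combined, 2 capsules in all. In the Hypothermia Group (5 rats) the isolated lenses stood in Hibernate-A medium at 4°C for 8 h, and the Normal Group (5 rats) had its capsules taken right after death. Both the cold and the 8 h outside the animal separate the groups, so the effects of temperature, medium and time cannot be told apart. The table was itself chosen by the outcome, because the genes in it had been selected for a difference between these same rats. Whether a zinc finger gene differed at all is therefore not a finding here. What the table can show is the direction and size of the differences, the levels, and how the families compare with the other listed genes. Sizes are those of selected genes, because differences near 0 are missing. The smallest log2 fold change among the 64 genes was 0.252 in absolute value, so medians and ranges depend in part on the selection.

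A zinc finger is a small protein fold held together by a zinc ion, and tandem C2H2 fingers read DNA sequence. Many C2H2 proteins carry a KRAB domain, which recruits a co-repressor that silences chromatin, or a SCAN domain, through which they pair. Others carry a BTB domain or homeodomains, and the CCCH fingers of the Zc3h proteins bind RNA instead. In the lens, transcription factors keep the epithelium and the fibre cells apart, and zinc finger proteins are among the regulators of both.

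Most of the listed zinc finger genes were lower after cold treatment. Of the 64 genes, 56 had lower values in the Hypothermia Group and 8 had higher ones, and the median log2FoldChange (Hypothermia over Normal) was -0.33. Over all 3222 listed genes with enough counts for a test, the median was 0.36 and 36.3% were lower. All 64 zinc finger genes passed the filter on low counts. The lower genes ranged from -1.21 (Zfp773-ps1) to -0.25 (Zfp62) and the higher ones from 0.29 (Zfp637) to 0.75 (Zfp385a). The differences were small, with 46 of the 56 lower genes between -0.50 and -0.25, and genes nearer to 0 are missing through the selection. These directions held with the authors' size factors (factors that scale each rat's counts for depth). The other 4 scalings tried moved all genes down together, by a median log2FoldChange of -0.29 (TMM), -0.31 (median-of-ratios), -0.45 (totals without lens fibre genes) and -1.23 (listed-gene totals), so lower genes could only stay lower. With them 57, 57, 60 and 64 zinc finger genes were lower, against 40.9%, 43.9%, 59.6% and 91.4% of all tested genes.

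Counts were tested in edgeR (quasi-likelihood F test), and p-values were adjusted by the Benjamini-Hochberg method over all expressed genes of the study and not only the listed ones. At an adjusted p under 0.05 it called 34 zinc finger genes down-regulated and 8 up-regulated. Among all tested genes 20.5% were called lower and 52.3% higher, or 72.9% in either direction. With TMM factors and p-values adjusted over tested genes alone, 56 zinc finger genes were called lower and 2 higher, where 36.3% of all tested genes were called lower and 32.2% higher. Under these factors, and also with TMM or median-of-ratios factors under the wider adjustment, the 22 zinc finger genes not called here were called lower, while of the 8 higher genes TMM kept the calls of Zfp385a and Zfp775 and median-of-ratios factors that of Zfp385a. The 5 rats of the Hypothermia Group lay below all 5 of the Normal Group for 29 zinc finger genes, a pattern seen in 16.7% of tested genes, and above them for 6, against 41.9% of tested genes. In either direction that made 35 of 64 zinc finger genes without overlap, where 58.5% of tested genes had none. The calls rested on few animals. Leaving out Hypothermia rat 1, 3, 4 or 5 left 20, 16, 27 and 18 calls, and leaving out Normal rat 3, 4 or 5 left 20, 15 and 19. Calls over all tested genes fell in the same fits, for example from 662 lower and 1686 higher to 410 and 1313 without Hypothermia rat 1 and to 297 and 1075 without Normal rat 4. Fits without Hypothermia rat 2, Normal rat 1 or Normal rat 2 called 42, 35 and 31 zinc finger genes. Over all tested genes these fits called 600, 664 and 496 lower and 1684, 1721 and 1440 higher. Of the 42 zinc finger genes called with all 10 rats, 10 kept their call in each of the 10 fits without 1 rat. How many of all tested genes kept theirs is not given here. None of the 64 changed direction in these fits. Where a called zinc finger gene is given below with its p-value, the number of these left-out fits without the call, if any, stands beside it. The labels do not say how the rats were batched. The p-values set the group difference against the spread between these rats, for genes already selected for a difference between them.

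**Figure D1:**
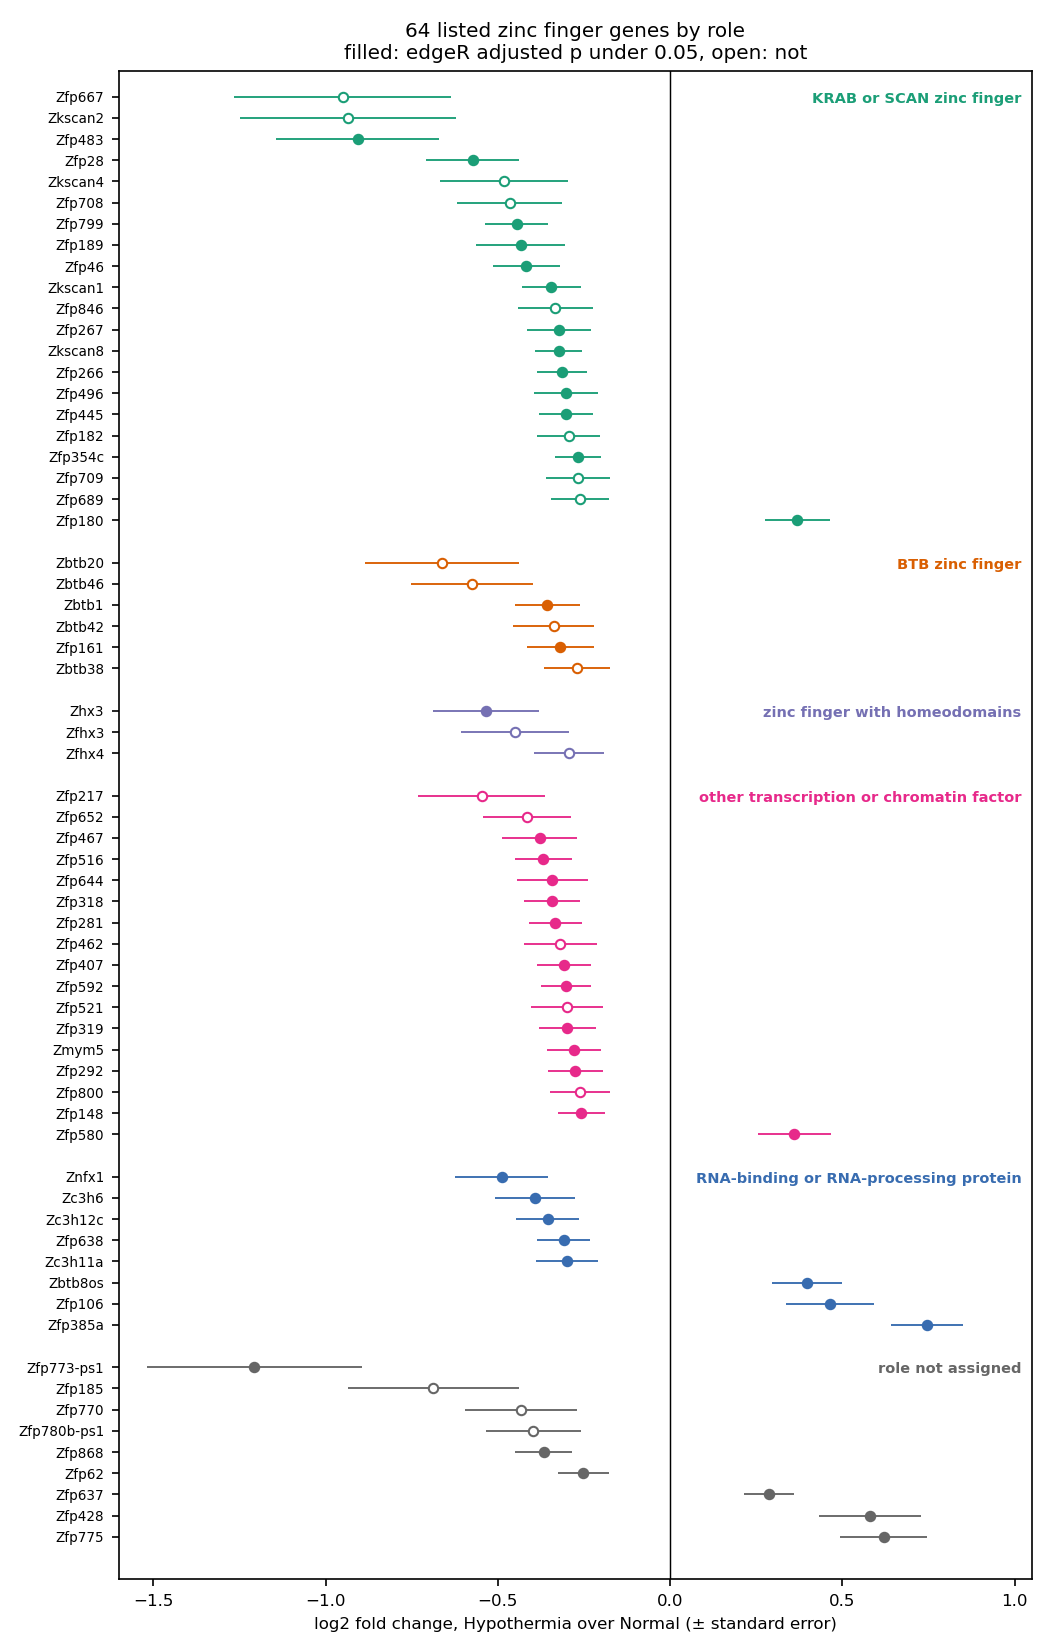
Log2FoldChange (horizontal axis, Hypothermia over Normal, authors' size factors) of the 64 listed zinc finger genes, grouped by role, with standard errors as bars and filled points for an edgeR adjusted p under 0.05. All but 8 points lie left of 0, and those 8 move left of 0 with listed-gene totals, as 91.4% of all tested genes then do.

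The lens capsule samples also differed in their cell markers. Of 14 lens fibre markers, 13 were listed and all 13 were called higher in the Hypothermia Group, where 52.3% of all tested genes were. Their median log2FoldChange was 2.14. Their summed FPKM (fragments per kilobase of gene length, here adjusted for depth by the size factors) spanned 168496 to 356862 across Hypothermia rats, against 18447 to 109327 across Normal rats. Of 6 lens epithelium markers, Pax6 and Gja1 were listed, and their summed FPKM ran from 390.3 to 486 against 526 to 649. Pax6, the master regulator of eye development, had a log2FoldChange of -0.26 (standard error 0.08, edgeR adjusted p = 0.0499), and Gja1, a gap junction gene of the epithelium, had -0.43 (standard error 0.14, edgeR adjusted p = 0.0568). The median of the zinc finger genes, -0.33, lay between these values. That placing shows no link, because the listed genes were selected and differences near 0 are missing. The epithelium markers that were not listed have no values here. In bulk samples fewer cells of a type and less RNA per cell cannot be told apart. Markers of tissue around the lens were low beside the fibre and epithelium markers. Of 7 retina and pigment epithelium markers 4 were listed, with sums of 3.65 to 5.18 FPKM across Hypothermia rats against 6.36 to 9.46 FPKM across Normal rats, without overlap. Pmel, a pigment cell gene, was called lower with a log2FoldChange of -1.77, Rlbp1 was not called (-0.43), and Rpe65 and Tyr were at 0 counts in 1 rat each. Of 4 ciliary body and iris markers 2 were listed, with sums of 0.829 to 5.28 FPKM across Hypothermia rats against 2.21 to 28.6 FPKM across Normal rats, with Myoc at 0 in 1 rat. Mfrp made up most of these sums, at 2.81 ± 2.07 FPKM (SD, n = 5) in Hypothermia against 11.7 ± 10.7 FPKM (SD, n = 5) in Normal rats. It varied widely between the Normal rats and was not called (log2FoldChange -2.07, standard error 0.76, edgeR adjusted p = 0.1145). Col1a1 was the 1 listed marker of 6 for fibroblasts and smooth muscle, at between 0.142 and 0.659 FPKM against 0.363 to 5.51. Endothelial and blood markers were looked up too, and under the symbols used none was listed. The part of these markers in the zinc finger results was not tested.

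The size of the shift varied from rat to rat. For each rat the deviation of every gene from the Normal mean was taken on the log2(normalized count + 1) scale, and the median over the 56 lower genes was -0.34, -0.22, -0.46, -0.33 and -0.43 in Hypothermia rats 1 to 5. It was -0.003, -0.06, 0.02, 0.03 and -0.007 in Normal rats 1 to 5. Hypothermia rat 2 lay closest to the Normal Group, and it also had the smallest median deviation of its group over all tested genes (0.23, against 0.32 to 0.47 in the others). The fibre marker sum was lowest in Hypothermia rat 2 and highest in Hypothermia rat 5, while the lower zinc finger genes deviated most in Hypothermia rat 3. For the 8 higher genes the medians were 0.45, 0.25, 0.56, 0.44 and 0.47 in the Hypothermia rats and 0.15, 0.10, -0.06, -0.13 and -0.045 in the Normal rats. Among the Normal rats, rat 1 had the highest fibre marker sum and the highest median over the higher genes and over all tested genes (0.09), while the lower genes were lowest in rat 2. The genes were divided by their direction in these same rats, so the gap between the groups is a description. The rats fall into separate clusters by group, so no correlation over the 10 rats was computed.

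**Figure D2:**
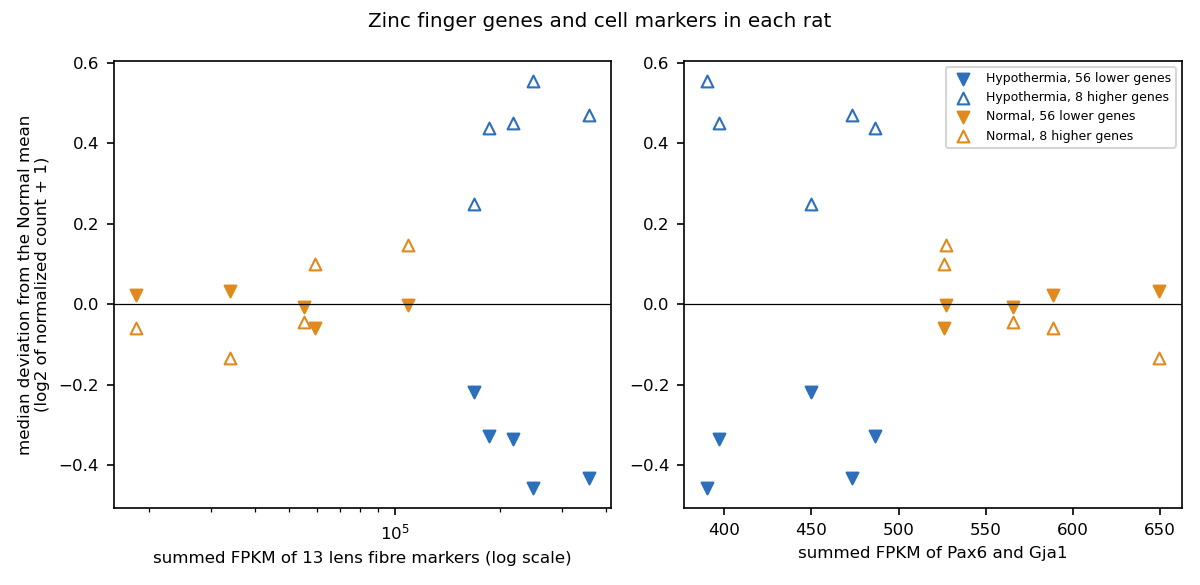
Median deviation from the Normal mean (vertical axis, log2 of normalized count + 1) over the 56 lower and the 8 higher zinc finger genes in each rat, against the summed FPKM of 13 lens fibre markers (left, log scale) and of Pax6 and Gja1 (right). The 5 Hypothermia rats lie to the right of the Normal rats in the fibre markers and to the left in Pax6 and Gja1; the vertical separation follows from how the genes were divided.

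**Figure D3:**
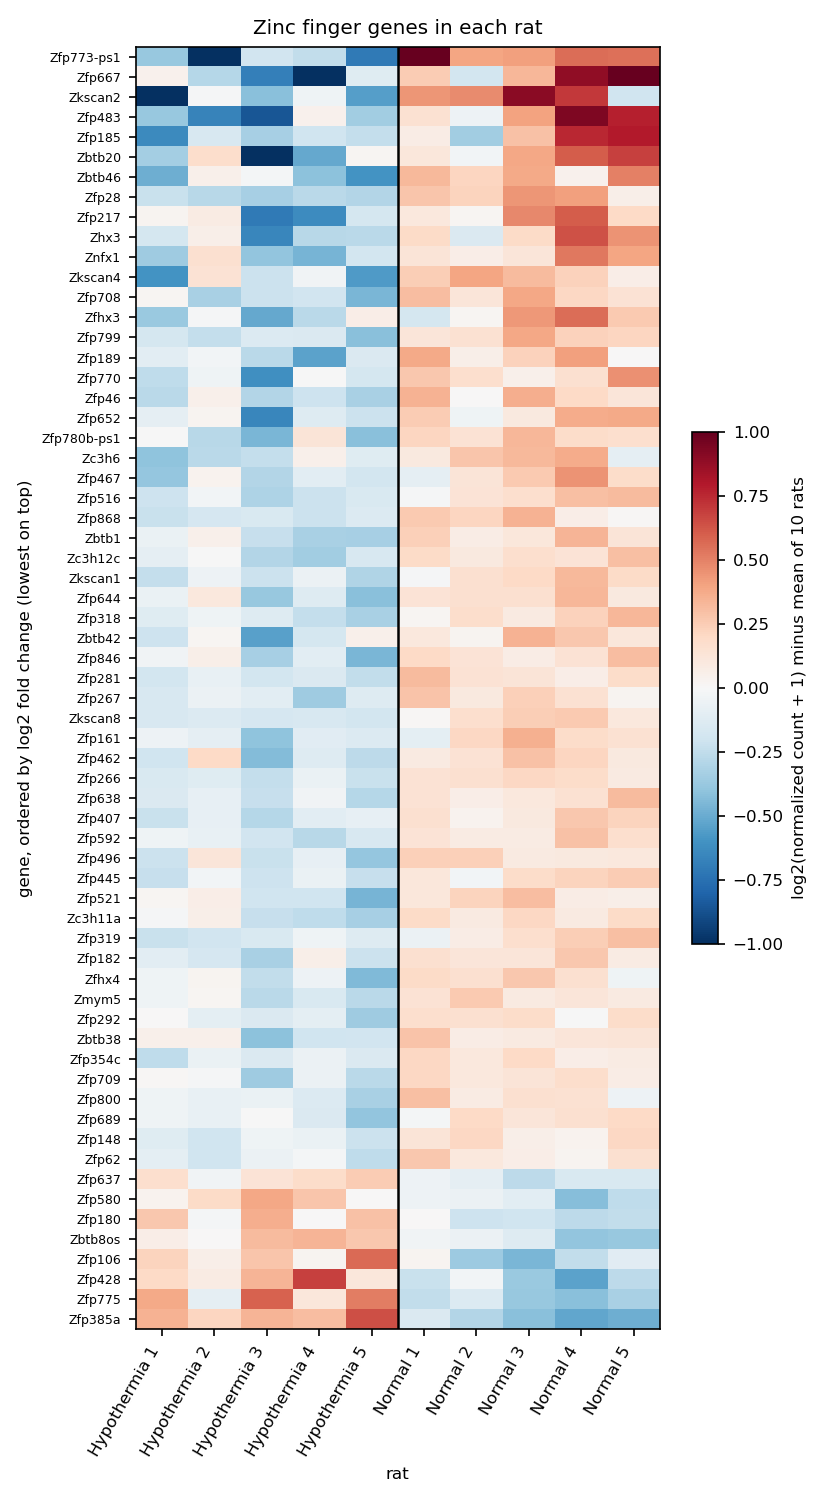
Log2(normalized count + 1) of each zinc finger gene (rows, lowest log2FoldChange on top) in each rat (columns), as the difference from the mean of the 10 rats, with colours saturating at 1 in either direction. The upper 56 rows are mostly blue in the Hypothermia rats and red in the Normal rats, and the bottom 8 rows are the reverse with the authors' size factors used here.

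The table was searched for what the families share in sequence and position. RefSeq promoters of GRCr8, each from 250 bases before to 50 after a gene's start, were matched by symbol or synonym to 47 of the 64 genes. The sequences shown belong to neighbouring genes, a pair with opposite directions and a pair that was lower in both, chosen after their values were seen. Zfp467, a factor in fat cell formation, and Zfp775 lie 165 kb apart on chromosome 4 of Rnor_6.0, with log2FoldChanges of -0.38 and 0.62. Zkscan8 and Zkscan4, which carry SCAN and KRAB domains, lie 51.6 kb apart on chromosome 17, with -0.32 and -0.48. Zkscan4 was not called (edgeR adjusted p = 0.126), and Zfp467 was (edgeR adjusted p = 0.0394, call absent in 8 of 10 left-out fits). Capitals mark GGGCGG, the GC box bound by Sp factors, and CCAAT, the CCAAT box, on either strand, so that CCGCCC and ATTGG are marked too. In GRCr8 the promoters lie at chr4:78723086-78723385 (minus strand), chr4:78887780-78888079 (plus strand), chr17:47734870-47735169 (plus strand) and chr17:47808784-47809083 (minus strand), and each is written 5′ to 3′ on its gene's strand.
Zfp467: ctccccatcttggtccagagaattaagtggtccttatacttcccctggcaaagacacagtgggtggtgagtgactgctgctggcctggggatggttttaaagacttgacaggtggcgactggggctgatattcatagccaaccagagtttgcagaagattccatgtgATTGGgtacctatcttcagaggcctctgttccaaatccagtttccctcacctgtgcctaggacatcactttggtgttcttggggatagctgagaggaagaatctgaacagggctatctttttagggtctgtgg
Zfp775: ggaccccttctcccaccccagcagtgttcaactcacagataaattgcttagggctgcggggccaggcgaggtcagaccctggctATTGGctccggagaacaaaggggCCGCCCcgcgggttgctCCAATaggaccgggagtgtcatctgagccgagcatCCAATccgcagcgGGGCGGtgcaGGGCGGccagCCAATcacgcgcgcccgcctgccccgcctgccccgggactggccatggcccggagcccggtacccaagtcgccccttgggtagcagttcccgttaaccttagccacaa
Zkscan8: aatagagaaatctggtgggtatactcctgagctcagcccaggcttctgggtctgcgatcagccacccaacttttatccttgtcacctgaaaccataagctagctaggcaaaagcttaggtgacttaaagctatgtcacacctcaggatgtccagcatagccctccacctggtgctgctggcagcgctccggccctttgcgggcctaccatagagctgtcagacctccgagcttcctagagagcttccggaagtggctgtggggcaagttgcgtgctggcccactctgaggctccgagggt
Zkscan4: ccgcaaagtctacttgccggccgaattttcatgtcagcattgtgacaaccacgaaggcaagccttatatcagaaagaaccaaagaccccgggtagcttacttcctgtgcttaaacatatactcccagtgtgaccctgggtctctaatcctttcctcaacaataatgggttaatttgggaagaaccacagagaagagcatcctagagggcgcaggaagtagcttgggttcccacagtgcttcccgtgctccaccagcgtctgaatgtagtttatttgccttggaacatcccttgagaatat

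The promoter of Zfp775 held 3 GC boxes and 4 CCAAT boxes, that of Zfp467 held 1 CCAAT box and no GC box, and the promoters of Zkscan8 and Zkscan4 held neither. Over the 47 matched zinc finger promoters, 40.4% held a GC box. The share was 64.6% over the 2276 tested genes matched by symbol and 33.1% over all 33469 promoters of the same length. The CCAAT box was in 29.8%, 37.6% and 37.5% of these sets. GAANNTTC, a pair of inverted units of the heat shock element (searched on both strands, and the same on each), was in 5 of the 47 zinc finger promoters, or 10.6%, against 5.2% of the matched tested genes and 8.6% of all promoters. CCGGAAG, a core of ETS factor sites, was in 17.0%, 18.1% and 8.7%, and TATAAA in 12.8%, 6.9% and 14.2%. Median GC content was 57.7% for the zinc finger promoters, 61.2% for the matched tested genes and 51.7% for all. Among the 41 lower genes with a promoter 39.0% held a GC box, and among the 6 higher ones 3 did. These shares are descriptions, and a match is not a bound site.

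Zinc finger genes often sit in clusters. Chromosome 1 held 10 of the 64 genes, 7 of them lower. On Rnor_6.0 the closest pairs besides those above, named for their distance, were Zfp266 and Zfp846 on chromosome 8, 87.8 kb apart, with log2FoldChanges of -0.31 and -0.33, and Zfp28 and Zfp667 on chromosome 1, 96.9 kb apart, with -0.57 and -0.95. Zfp180 and Zfp428, 433 kb apart on chromosome 1, were both higher.

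KRAB and SCAN zinc finger proteins, many of them repressors of mobile elements, were the largest group by known role. Of 21 such genes 20 were lower and 1 was higher, with a median log2FoldChange of -0.33, and 12 were called lower and 1 higher, where 20.5% of all tested genes were called lower and 52.3% higher. These role groups were drawn up from general knowledge after the values were known, and they carry no test. Zfp799 (chromosome 7 of Rnor_6.0, 15069254 to 15073052) had normalized counts of 184, 177, 189.5, 189 and 156 in Hypothermia rats 1 to 5 and of 227, 232, 273, 246 and 243 in Normal rats 1 to 5. Every Hypothermia rat lay below every Normal rat, with a log2FoldChange of -0.45 (standard error 0.09, edgeR adjusted p = 0.00964). It kept its call without any single rat. Zfp28 (chromosome 1 of Rnor_6.0, 71167156 to 71173216) had 76.0, 73.2, 70.3, 73.5 and 72.5 normalized counts in the Hypothermia rats and 108, 104, 121, 118 and 92.5 in the Normal rats. The Hypothermia rats were tightly grouped and all lower, with a log2FoldChange of -0.57 (standard error 0.14, edgeR adjusted p = 0.017, call absent in 1 of 10 left-out fits). Zfp189 (chromosome 5 of Rnor_6.0, 64789456 to 64800810) had 154, 163, 138, 114 and 150.5 against 216, 173, 195, 222 and 167, without overlap, and a log2FoldChange of -0.43 (standard error 0.13, edgeR adjusted p = 0.0433, call absent in 7 of 10 left-out fits).

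Among the Zkscan genes, Zkscan8 (chromosome 17 of Rnor_6.0, 45078556 to 45097013) was the most abundant in normalized counts, with 759.6, 768, 754, 759 and 747 in the Hypothermia rats and 855, 953, 1006, 1017 and 909.9 in the Normal rats. The groups did not overlap, and the spread within the Hypothermia Group was narrow, with a log2FoldChange of -0.32 (standard error 0.07, edgeR adjusted p = 0.0104). Zkscan1 (chromosome 12 of Rnor_6.0, 19231092 to 19247387) had 288, 329, 294, 327 and 275 against 337, 381, 391, 426 and 388, again without overlap, and a log2FoldChange of -0.35 (standard error 0.09, edgeR adjusted p = 0.0206, call absent in 3 of 10 left-out fits). Zkscan2 (chromosome 1 of Rnor_6.0, 193437614 to 193459396) had the lowest FPKM of all 64 genes, 0.152 ± 0.0507 (SD, n = 5) after cold treatment against 0.293 ± 0.0785 (SD, n = 5) in Normal rats. Its FPKM by rat was 0.0775, 0.202, 0.15, 0.197 and 0.136 against 0.28, 0.285, 0.387, 0.338 and 0.176, the groups overlapped at the Normal rat 5, and it was not called, with a log2FoldChange of -0.93 (standard error 0.31, edgeR adjusted p = 0.0722).

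Further genes of this group were chosen after their values were seen. Zfp266 (chromosome 8 of Rnor_6.0, 21511839 to 21523540) was the KRAB gene with the highest level, at 35.0 ± 1.72 FPKM (SD, n = 5) after cold treatment against 43.5 ± 1.31 FPKM (SD, n = 5) in Normal rats. Its normalized counts were 3477, 3559.6, 3283, 3695 and 3318 against 4268, 4323, 4456, 4395 and 4117. The groups did not overlap, with a log2FoldChange of -0.31 (standard error 0.07, edgeR adjusted p = 0.0153), and the call held without any single rat. Zfp445, which helps to keep imprinted genes methylated, had 395, 456, 403, 444 and 396 against 503, 455, 528, 543 and 555 and a log2FoldChange of -0.30 (standard error 0.08, edgeR adjusted p = 0.0254, call absent in 6 of 10 left-out fits). Its groups met, since Hypothermia rat 2 reached the level of Normal rat 2. Zfp483 had 61.5, 50.2, 43.9, 82.7 and 63.1 against 89.7, 77.7, 107, 154 and 138 and overlapped, with a log2FoldChange of -0.91 (standard error 0.24, edgeR adjusted p = 0.0261, call absent in 6 of 10 left-out fits). Zfp667 had 42.2, 33.5, 25.1, 16.3 and 37.6 against 49.0, 36.0, 51.7, 76.8 and 85.1, overlapped, and was not called (log2FoldChange -0.95, standard error 0.31, edgeR adjusted p = 0.0682). Zfp180, the 1 higher gene of the group, had 1044, 854, 1117, 872 and 1063 against 869, 752, 754, 725 and 730.5. Hypothermia rat 2 lay below Normal rat 1, and the log2FoldChange was 0.37 (standard error 0.09, edgeR adjusted p = 0.0244, call absent in 7 of 10 left-out fits). It was 0.08 and not called with TMM and -0.88 with listed-gene totals.

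BTB zinc finger proteins act as DNA-binding repressors, often with co-repressor and histone deacetylase complexes. All 6 genes of this group (5 Zbtb genes and Zfp161, an older name of Zbtb14) were lower and 2 were called, Zbtb1 and Zfp161, where 20.5% of all tested genes were called lower. Zbtb1 (chromosome 6 of Rnor_6.0, 99402360 to 99424019), needed for lymphocyte development, had 353, 384, 315, 295 and 294 normalized counts in the Hypothermia rats and 438, 389, 401, 469 and 406 in the Normal rats. The groups did not overlap, with a log2FoldChange of -0.36 (standard error 0.09, edgeR adjusted p = 0.0274, call absent in 4 of 10 left-out fits). Zbtb20 (chromosome 11 of Rnor_6.0, 62014925 to 62451184), a repressor known from liver and brain, had 259, 372, 153, 231 and 333 against 355, 322, 429.6, 499.8 and 530.0. The groups overlapped and the spread was wide, and it was not called (log2FoldChange -0.66, standard error 0.22, edgeR adjusted p = 0.0768). Zfp161, chosen after its values were seen, had 400.3, 389.9, 313, 383 and 376 against 387, 478, 529.9, 469 and 459.5 and a log2FoldChange of -0.32 (standard error 0.10, edgeR adjusted p = 0.048, call absent in 9 of 10 left-out fits). Its groups overlapped between Hypothermia rats 1 and 2 and Normal rat 1. Zbtb46, Zbtb42 and Zbtb38 (the last a reader of methylated DNA, and all 3 chosen after their values were seen) had log2FoldChanges of -0.58, -0.34 and -0.27 and were not called.

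Zinc finger proteins with homeodomains are large transcription factors. Zfhx4 (chromosome 2 of Rnor_6.0, 98423569 to 98610368) was the longest of the 64 genes, with 13927 bases in the table's gene length. It had 2240.3, 2350.1, 1943, 2231 and 1699.5 normalized counts in the Hypothermia rats and 2639, 2578, 2783, 2582 and 2237 in the Normal rats, a level of 9.03 ± 1.15 FPKM (SD, n = 5) against 11.1 ± 0.866 FPKM (SD, n = 5). The groups overlapped and it was not called (log2FoldChange -0.29, standard error 0.10, edgeR adjusted p = 0.0814). Zfhx3 (chromosome 19 of Rnor_6.0, 42758127 to 42920344), a factor of the circadian clock centre, had 199, 256, 181, 214 and 270.0 against 228, 262, 348, 381 and 310.3 and was not called either (log2FoldChange -0.45, standard error 0.16, edgeR adjusted p = 0.0812). Zhx3 (chromosome 3 of Rnor_6.0, 156764751 to 156777999), a repressor, had 471, 555, 339, 439.9 and 443 against 610.5, 482, 609, 830.1 and 729. Hypothermia rat 2 lay above Normal rat 2, and it had a log2FoldChange of -0.53 (standard error 0.15, edgeR adjusted p = 0.0402, call absent in 8 of 10 left-out fits).

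Of 17 other transcription and chromatin factors 16 were lower and 1 was higher. Of these 11 were called lower and 1 higher, where 20.5% of all tested genes were called lower and 52.3% higher. Zfp148 (chromosome 11 of Rnor_6.0, 70514750 to 70618347), which binds GC-rich promoters, had 623, 589.6, 658, 646 and 582 normalized counts in the Hypothermia rats and 742, 783, 703, 695 and 784 in the Normal rats, without overlap, and a log2FoldChange of -0.26 (standard error 0.07, edgeR adjusted p = 0.0276, call absent in 5 of 10 left-out fits). Zmym5 (chromosome 15 of Rnor_6.0, 37042396 to 37056892) had 517, 539, 442, 478 and 442 against 586, 638, 565, 579.8 and 567, without overlap, and a log2FoldChange of -0.28 (standard error 0.08, edgeR adjusted p = 0.0336, call absent in 8 of 10 left-out fits). The following were chosen after their values were seen. Zfp516, known as a cold-responsive activator of brown fat genes, was lower here, with 492, 556, 457, 488 and 509 against 561, 625, 637, 699.8 and 707. The groups did not overlap, with a log2FoldChange of -0.37 (standard error 0.08, edgeR adjusted p = 0.0138), and the call held without any single rat. Zfp281, a regulator of pluripotent cells, had 233, 251, 232, 239 and 223 against 328, 292, 289, 276 and 299, without overlap, and a log2FoldChange of -0.33 (standard error 0.08, edgeR adjusted p = 0.0151). Zfp318, which B cells need to make IgD, had 527, 557, 525, 487 and 457 against 581, 649, 610.2, 673 and 723, without overlap, and a log2FoldChange of -0.34 (standard error 0.08, edgeR adjusted p = 0.0175). Zfp217, a partner of co-repressors, had 156, 161, 92.9, 98.0 and 134 against 164, 155, 212, 232 and 175, overlapped and was not called (edgeR adjusted p = 0.0724). Zfp580 (chromosome 1 of Rnor_6.0, 72338877 to 72339395), the shortest of the 64 genes at 519 bases in the table, was the 1 higher gene of the group. It had 251, 280.2, 320.1, 298 and 246 against 237, 235, 228, 182 and 205, without overlap, and a log2FoldChange of 0.36 (standard error 0.11, edgeR adjusted p = 0.0434, call absent in 8 of 10 left-out fits). It was 0.08 and not called with TMM, and turned to -0.86 with listed-gene totals and to -0.08 with totals taken without lens fibre genes.

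The proteins that act on RNA held 3 of the 8 higher genes. Of the 8 genes of this group 5 were lower and 3 higher, and all 8 were called, where 72.9% of all tested genes were. Zfp385a (chromosome 7 of Rnor_6.0, 144939619 to 144966370), which binds RNA and is a partner of p53, was both the most abundant of the 64 genes per length and the one with the highest log2FoldChange. Its normalized counts were 3616, 3298, 3600.2, 3523 and 4446 in the Hypothermia rats and 2569.6, 2323, 2126, 1978 and 2027 in the Normal rats, or 85.4 ± 10.1 FPKM (SD, n = 5) against 50.9 ± 5.62 FPKM (SD, n = 5). Every Hypothermia rat lay above every Normal rat, with a log2FoldChange of 0.75 (standard error 0.10, edgeR adjusted p = 0.00459). The call held without any single rat and with TMM, while with listed-gene totals the log2FoldChange was -0.49. Zbtb8os (chromosome 5 of Rnor_6.0, 147535525 to 147547047) encodes archease, a cofactor of the tRNA ligase, and is no zinc finger protein despite its symbol. It had 559, 537, 667, 679 and 645 against 523, 513, 489, 408 and 412, without overlap, and a log2FoldChange of 0.40 (standard error 0.10, edgeR adjusted p = 0.0234, call absent in 5 of 10 left-out fits). It was 0.11 and not called with TMM, and turned to -0.84 with listed-gene totals and to -0.05 with totals taken without lens fibre genes. Zfp106, an RNA-binding protein of nerve and muscle, was chosen after its values were seen. It had 4876, 4348, 5053, 4265 and 6198 against 4266, 3255, 3037, 3512 and 3855. The groups met at Hypothermia rat 4 and Normal rat 1, with a log2FoldChange of 0.46 (standard error 0.13, edgeR adjusted p = 0.0317, call absent in 7 of 10 left-out fits), and it was 0.18 and not called with TMM and -0.78 with listed-gene totals.

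The CCCH genes were all lower. Zc3h12c (chromosome 8 of Rnor_6.0, 56641808 to 56696968), of the Regnase family of RNases, had 211, 224, 183, 177 and 202 normalized counts in the Hypothermia rats and 257, 241, 252, 248 and 277 in the Normal rats, without overlap, and a log2FoldChange of -0.36 (standard error 0.09, edgeR adjusted p = 0.0237, call absent in 5 of 10 left-out fits). Zc3h11a (chromosome 13 of Rnor_6.0, 50196042 to 50234862), an mRNA export factor, was far more abundant, at 58.9 ± 6.99 FPKM (SD, n = 5) against 72.5 ± 2.96 FPKM (SD, n = 5). Its normalized counts were 2895, 3044, 2483, 2445 and 2322 against 3327, 3105, 3368, 3101 and 3335, without overlap, and it had a log2FoldChange of -0.30 (standard error 0.09, edgeR adjusted p = 0.0483, call absent in 9 of 10 left-out fits). Zc3h6, chosen after its values were seen, had 182, 199.7, 205, 250.1 and 222 against 258, 292, 302, 312 and 226 and overlapped, with a log2FoldChange of -0.39 (standard error 0.12, edgeR adjusted p = 0.0426, call absent in 7 of 10 left-out fits). Znfx1, likewise chosen, a helicase of antiviral defence, had 269, 385, 262, 250.1 and 304 against 377, 361, 375, 498 and 453, overlapped through Hypothermia rat 2, and had a log2FoldChange of -0.49 (standard error 0.13, edgeR adjusted p = 0.0321, call absent in 6 of 10 left-out fits). Zfp638, likewise chosen, had a log2FoldChange of -0.31 (standard error 0.08, edgeR adjusted p = 0.0217, call absent in 3 of 10 left-out fits), without overlap.

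The other 9 genes had no role assigned here. Of these 6 were lower, 3 of them called, and 3 were higher and called, where 20.5% of all tested genes were called lower and 52.3% higher. Zfp775 (chromosome 4 of Rnor_6.0, 78240385 to 78258545) had 510.0, 369, 592, 426 and 559 normalized counts in the Hypothermia rats and 331, 357, 302, 293 and 313 in the Normal rats. The groups did not overlap, although Hypothermia rat 2 lay close to Normal rat 2, with a log2FoldChange of 0.62 (standard error 0.13, edgeR adjusted p = 0.00938). The call held without any single rat and with TMM (0.32) but not with median-of-ratios factors (0.30), and with listed-gene totals the value was -0.64. Zfp428 (chromosome 1 of Rnor_6.0, 81372650 to 81382079) had 162, 148, 178, 227 and 152 against 120.2, 138, 108, 96.8 and 117, without overlap, and a log2FoldChange of 0.58 (standard error 0.15, edgeR adjusted p = 0.0242, call absent in 5 of 10 left-out fits). It was 0.30 and not called with TMM and -0.63 with listed-gene totals. Zfp637, chosen like the next 2 genes after its values were seen, had a log2FoldChange of 0.29 (standard error 0.07, edgeR adjusted p = 0.0225, call absent in 6 of 10 left-out fits), the smallest of the higher genes, and turned to -0.001 with TMM. Zfp773-ps1, a pseudogene by its symbol but protein-coding by the table's biotype, was the lowest, with 12.1, 5.23, 13.8, 13.3 and 9.40 against 34.2, 21.3, 21.5, 24.0 and 23.8 and a log2FoldChange of -1.21 (standard error 0.31, edgeR adjusted p = 0.0249, call absent in 2 of 10 left-out fits). It rested on few counts. Zfp185, a cytoskeletal LIM protein and no transcription factor, had 31.3, 43.9, 38.9, 42.9 and 41.6 against 51.8, 38.4, 60.5, 84.0 and 86.0, overlapped and was not called (edgeR adjusted p = 0.0964). Whether reads were shared between near-identical zinc finger genes, or taken from overlapping genes on the other strand, was not tested.

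**Figure D4:**
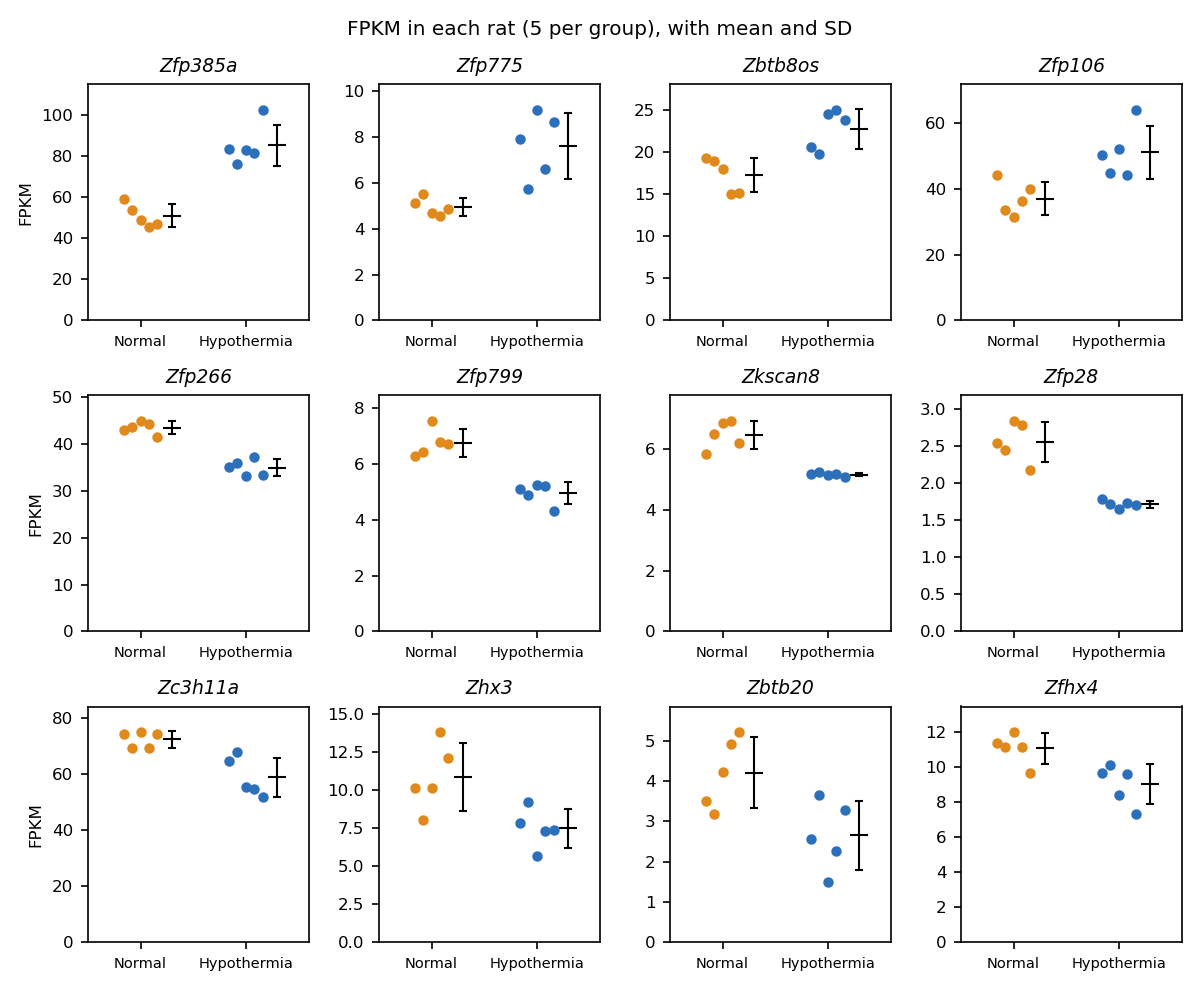
FPKM (vertical axis, starting at 0) of 12 zinc finger genes in the 5 Normal and the 5 Hypothermia rats, with a point for each rat and the mean and SD beside them. The groups are apart for Zfp385a, Zfp775, Zbtb8os, Zfp266, Zfp799, Zkscan8, Zfp28 and Zc3h11a and overlap for Zfp106, Zhx3, Zbtb20 and Zfhx4; the higher genes are so with the authors' size factors and turn lower with listed-gene totals.

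Levels per length spanned a wide range. The mean FPKM over the 10 rats had a median of 5.83 over the 64 genes, against 12.98 over all tested genes, and ran from 0.223 (Zkscan2) to 68.2 (Zfp385a). Next below Zfp385a came Zc3h11a at 65.7, Zfp106 at 44.1, Zfp266 at 39.3, Zfp637 at 33.6 and Zfp580 at 28.7 FPKM.

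Gene length, the number of bases used for FPKM, was set beside the direction because zinc finger genes are long. Their median length was 3143 bases against 2192 over all tested genes. Over all 3222 tested genes the log2FoldChange went down with length (Spearman's rho = -0.43), while over the 64 zinc finger genes rho was 0.06. These are descriptions across genes of the same rats. All tested genes were divided by length into 3 classes of nearly equal size. In the short class (up to 1566 bases) 4 of 7 zinc finger genes were lower, against 8.61% of the 1068 other genes. In the middle class 22 of 24 were lower, or 91.7%, against 33.0% of 1049 others. In the long class (above 3089 bases) 30 of 33 were lower, or 90.9%, against 64.8% of 1041 others. Median log2FoldChanges of the zinc finger genes were -0.37, -0.34 and -0.32 in the short, middle and long class, and those of the other genes 0.55, 0.35 and -0.31. These medians cover selected genes without differences near 0, so their likeness across classes depends in part on the selection. They are with the authors' size factors, and other scalings move those of both sets down. With TMM the 3 medians of the zinc finger genes were -0.654, -0.618 and -0.599.

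**Figure D5:**
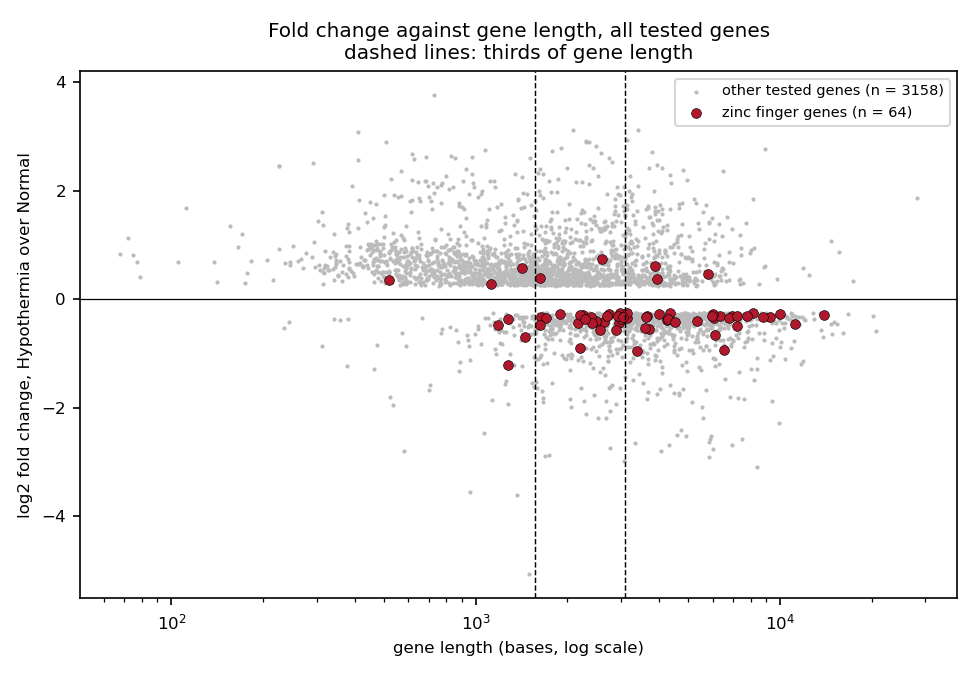
Log2FoldChange (vertical axis, Hypothermia over Normal, authors' size factors) against gene length in bases (horizontal axis, log scale) for 3158 other tested genes in grey and 64 zinc finger genes in red, with dashed lines between the 3 length classes. The band around 0 is empty because the table holds selected genes, and the red points lie mostly below 0 in the middle and long classes.

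Lists of related genes were set beside the families. Of 78 C2H2 zinc finger genes with other names, such as the Klf, Sp and Gli genes, 26 were listed, of which 20 were lower and 6 higher, with a median log2FoldChange of -0.36. Of these 17 were called lower and 4 higher, where 20.5% of all tested genes were called lower and 52.3% higher, and the 6 turned lower with listed-gene totals, as most tested genes do. The lowest p-values were those of Sp4 (-0.45, standard error 0.07), Vezf1 (-0.46, standard error 0.08), Sall2 (-0.48, standard error 0.09) and Sp1 (-0.37, standard error 0.08), all called lower without overlap. Among the partners of BTB and CoREST proteins, Sin3a (-0.30, standard error 0.07) and 1 of the 2 entries of Rcor1 (-0.28, standard error 0.08) were called lower, and Cul3, the ubiquitin ligase scaffold that BTB proteins bind, was called higher (0.43, standard error 0.12, turning to -0.78 with listed-gene totals and -0.014 with totals without lens fibre genes). The other entry of Rcor1 (-0.34, standard error 0.12) was not called. Of 20 mRNA decay and poly(A) factors 3 were listed. The deadenylase genes Cnot6 (-0.44, standard error 0.08) and Cnot6l (-0.34, standard error 0.07) were called lower, and Pabpc1, the poly(A)-binding protein, was called higher (0.86, standard error 0.17, turning to -0.37 with listed-gene totals). Co-repressor genes of KRAB proteins were looked up too, and under the symbols used none was listed, so their direction is not known here.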

How the data were processed

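RNA-seq counts of 5 Hypothermia and 5 Normal rats were analysed. Per the labels and the methods of the study, alignment by the authors was to the Rnor_6.0 genome (HISAT2 2.0.5), and the deposited counts are whole reads per gene from featureCounts 1.5.0-p3, while the annotation release and strand setting are not given in the sources used here. The deposited FPKM rest on counts, gene length and the authors' size factors, as the values themselves show. The 2 columns of group means hold a signal, the authors' mean normalized counts. The deposited log2 fold changes and p-values, from the authors' DESeq2 1.16.1, were not used. Listed counts summed to between 9026144 and 12415121 per Hypothermia rat and between 4792595 and 8177803 per Normal rat. They cover part of each library, so each rat's depth is unknown.

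The authors' size factors were recovered from the group means by least squares (largest relative error 4.89e-10). They ran from 0.744 to 0.980 in Hypothermia rats and from 1.08 to 1.26 in Normal rats, so the scaling itself differs between the groups. Counts were fitted on the whole table with edgeR 4.0.16 in R 4.3.3 (filterByExpr, robust glmQLFit, glmQLFTest, group as the only factor), two-sided, with Benjamini-Hochberg adjustment over the number of expressed genes the study gives. Standard errors are the log2 fold change over the square root of F. The test was tested on simulated data with known changes. Alternatives were TMM, median-of-ratios and listed-gene totals as scaling, DESeq2 1.42.0, no filter, adjustment over the tested genes, a threshold of 0.01, a replicate block and each rat left out. The members, lists and tests were chosen with earlier results of these data known. Genes were named by rule: per prefix, up to 3 highest and 3 lowest called genes without overlap (mean normalized count of 50 or more), genes of known role, and the extremes of FPKM and length, with up to 4 genes of each related list, lowest p first. Other genes were named after their values were seen, most of them marked so where they are described. A gene of 1 list is not reported here. Promoters came from RefSeq (GRCr8). Figures were drawn with matplotlib 3.10.9.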

Additional observations from a re-analysis of the deposited data

Results flagged for a closer look

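Among 128 sets of 5 rats (64 genes in each group), 7 had a highest or lowest rat standing apart from the others by Dixon's test at the 95% level (critical value 0.71), and chance flags about 1 in 20 sets. The values are normalized counts. Zfp385a reached 4446 in Hypothermia rat 5, where the next rat had 3616. Zfp180 reached 869 in Normal rat 1 against 754 in the next. Zfp773-ps1 reached 34.2 in Normal rat 1 against 24.0. Zbtb38 reached 606 in Normal rat 1 against 546. Zfp644 reached 914 in Normal rat 4 against 812. Zfp161 was lowest in Hypothermia rat 3, at 313 against 376, and Zfp292 in Normal rat 4, at 1083 against 1212. Normal rat 1 accounted for 3 of the 7.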

How the results depend on the processing

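None of the 64 zinc finger genes changed direction without any single rat or with the replicate block. In place of 42 calls (34 lower, 8 higher), adjustment over the tested genes gave 64 (56 lower, 8 higher), where 1169 lower and 2052 higher of all 3222 tested genes were called, and an adjusted p under 0.01 gave 3 (1 lower, 2 higher), where 86 lower and 667 higher of all tested genes passed it. Other scalings shifted the median log2FoldChange of all tested genes by -0.29 (TMM), -0.31 (median-of-ratios), -0.45 (totals without lens fibre genes, chosen after seeing the data) and -1.23 (listed-gene totals), so lower genes could only stay lower. They gave 56, 56, 56 and 62 genes called lower and 2, 1, 1 and 0 called higher, where 1100, 1101, 1128 and 2400 of all tested genes were called lower and 640, 612, 315 and 57 higher, with the same counts of zinc finger genes under either adjustment of TMM. With listed-gene totals all 64 were lower in edgeR, so 0 were higher at an unadjusted p under 0.05 too. The median of the zinc finger genes was below that of all tested genes in each (-0.61 against 0.075 with TMM, -0.635 against 0.05, -0.77 against -0.085 and -1.56 against -0.87). A shift of all genes together moves both medians alike, so this order could hardly change and the scalings are no check of it. The medians by length class moved to -0.654, -0.618 and -0.599 with TMM. Zfp637 turned to -0.001 (TMM, either adjustment), -0.023 (median-of-ratios), -0.16 (totals without lens fibre genes) and -0.95 (listed-gene totals). With totals without lens fibre genes, Zfp580, Zfp180 and Zbtb8os turned to -0.082, -0.085 and -0.052. With listed-gene totals Zfp580, Zfp180, Zbtb8os, Zfp106, Zfp428, Zfp775 and Zfp385a turned to -0.86, -0.88, -0.84, -0.78, -0.63, -0.64 and -0.49. Without 1 rat each, between 15 and 42 genes were called, 13 to 35 lower and 2 to 8 higher, where 297 to 664 of all tested genes were called lower and 1075 to 1721 higher. Both groups number their rats 1 to 5, but same-numbered rats are different animals with correlations of their deviations from -0.17 to 0.23, with no rat closest to its own number, so the replicate block is no pairing. With it 3 genes were called, 1 lower and 2 higher, where 134 lower and 808 higher of all tested genes were called. The cause of these changes was not tested, apart from the shift itself. Zfp773-ps1, Zkscan2, Zfp667 and Zfp185 rested on few counts, each with a mean normalized count near or under 50.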
